A study of Homo sapiens with 6 samples.

Results

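The genes of the proteasome were followed in HaCaT, an immortalised keratinocyte cell line of human skin, with and without interferon beta (IFN-beta). Members were the rows of the deposited table of FPKM (reads per gene relative to its length and to the size of the library) whose gene symbol is PSM, a letter from A to G and a number, which gave 48 of 60671 genes. The labels give both groups as wild type. The 3 IFN-beta libraries came from cells kept for 24 h in serum-free high-glucose medium with 160 ng/mL of the interferon, and the 3 control libraries from cells kept as long in the same medium without it. Whether replicates were separate cultures is not stated in the labels, so each p-value is set against a spread between libraries that may be only technical.

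The proteasome is the barrel-shaped protease that breaks down proteins tagged with ubiquitin. Its core is built from rings of alpha subunits (PSMA genes) and beta subunits (PSMB genes), of which 3 beta subunits cut, and it is capped by a regulatory particle whose base holds ATPases that unfold the substrate (PSMC genes) and whose lid removes ubiquitin (PSMD genes). Interferons are known to raise 3 alternative cutting subunits, PSMB8, PSMB9 and PSMB10, which take the places of PSMB5, PSMB6 and PSMB7 in newly built particles, and the activator subunits PSME1 and PSME2, which form a ring that opens the core. Particles of this kind, called immunoproteasomes, yield peptides suited to MHC class I molecules.

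The immune subunits are shown first by their promoters, because an element that interferon-activated factors of the IRF and STAT families bind is known to recur in them. RefSeq windows (build GRCh38.p14) from 250 bases before to 50 bases after a transcript start were given for 42 of the 48 genes, the exceptions being PSMA7, PSMB1, PSMB6, PSMB7, PSMD4 and PSMG3. The core of the interferon-stimulated response element was searched on both strands as GAAA, any 2 bases and GAAA. It lay in a window of 4 of the 5 immune genes and of 3 of the 37 others, against 4.38% of the 27305 genes with a window. The matches are printed below as 30 bases on the strand of the gene, 5′ to 3′, with the element, read on either strand, in capitals.
PSMB8: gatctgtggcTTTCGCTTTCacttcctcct
PSMB10: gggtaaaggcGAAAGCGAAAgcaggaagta
PSME1: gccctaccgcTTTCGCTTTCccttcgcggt
PSME2: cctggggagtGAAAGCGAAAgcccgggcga
PSMG4: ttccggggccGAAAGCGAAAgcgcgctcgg
PSMB4: tcgtctacagGAAAAAGAAAgaaatgacac
PSMA4: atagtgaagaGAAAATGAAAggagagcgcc

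The 4 immune genes and PSMG4, which encodes a chaperone of core assembly, carried the same 10 letters, GAAAGCGAAA on one strand or the other. The search for these exact letters was added after the windows had been seen. These letters were in 35 of the 35116 windows of all genes, or 0.0997%. With the first transcribed base counted as 0, the element began at position -4 in PSMB8 (chr6:32844042-32844051), -21 in PSMB10 (chr16:67936862-67936871), 5 in PSME1 (chr14:24136199-24136208), -28 in PSME2 (chr14:24146629-24146638) and -33 in PSMG4 (chr6:3258914-3258923). RefSeq gives PSMB8 2 starts with a window each. The element spans one of these starts, and the window of the other, further upstream, does not hold it. In PSME1 it lies in the transcribed 5′ end. The gene PSMB4 (chr1:151399505-151399514), for a structural core subunit, and PSMA4 (chr15:78540165-78540174), for an alpha subunit, matched the core with other letters between the repeats. A match of letters is a description and not a shown binding site.

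**Figure D1:**
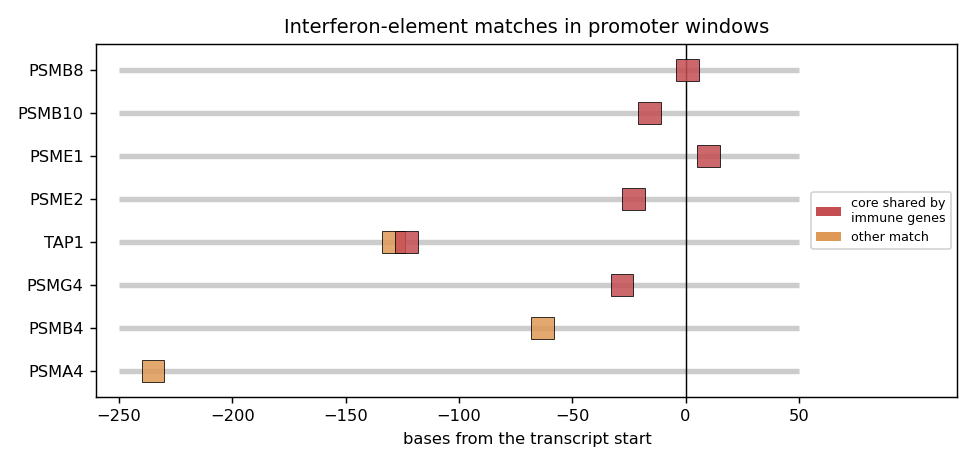
Position of each match to the element core (boxes, drawn 10 bases wide) in the promoter windows (grey bars) of the 7 proteasome genes that hold one and of TAP1, in bases from the transcript start (vertical line). Red boxes mark the 10 letters shared by the immune genes, which begin between 33 bases before and 5 bases after the start in 4 immune genes and PSMG4, and orange boxes mark other matches.

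The window of PSMB9 did not hold the element. PSMB9 and TAP1, which encodes a subunit of the peptide transporter of the endoplasmic reticulum, are read away from each other from starts 488 bases apart, where for TAP1 the upstream one of its 2 RefSeq starts is taken. The window of that TAP1 start held 2 overlapping matches that together span 16 bases (chr6:32853823-32853838), and the span ends 354 bases before the PSMB9 start. The TAP1 stretch (chr6:32853816-32853845, minus strand) is printed because it lies between the starts of both genes, with the element in capitals.
TAP1: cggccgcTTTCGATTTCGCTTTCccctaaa

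The windows were searched for 3 more elements, again on both strands. The gamma-activated site of STAT factors, searched as TTC, any 3 bases and GAA, was in windows of 1 of the 5 immune and 7 of the 37 other genes, against 9.38% of all genes, with PSMB8 as the immune one. A loose form of the NF-kB site, searched as GGG, any 5 bases and CC, was in 2 and 29 genes, against 61.7% of all genes. A loose form of the antioxidant response element was searched as TGA, any 4 bases and GC. The element is bound by NFE2L1 and NFE2L2, factors known to drive constitutive proteasome genes. Its loose form was in 4 immune and 24 other genes, against 47.1% of all genes.

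The totals by which the FPKM were scaled lay between 25832158 and 30594527 reads per library, as recovered from the steps of the FPKM. How many reads were sequenced is not known from these totals. Across the 15163 tested genes, log2 values correlated with r of 0.994 to 0.995 within a group and 0.973 to 0.976 between groups. Of these genes, which are not independent replicates, 42.4% passed the test (limma, Benjamini-Hochberg adjusted p under 0.05), 22.5% higher and 19.9% lower with IFN-beta. All 8 keratinocyte markers passed the filter and summed to 3633 to 3915 FPKM in control and 3592 to 3655 FPKM in IFN-beta libraries, with 3 called higher and 2 lower. Blood cells hold immunoproteasomes without interferon, and the 8 haematopoietic markers summed to between 3.30 and 4.65 FPKM without and between 4.50 and 4.72 FPKM with IFN-beta. Most of each sum was CD14, at 2.75 to 3.96 FPKM in control and 3.29 to 3.82 FPKM with IFN-beta, which did not pass (limma adjusted p = 0.438). PTPRC, the pan-leukocyte marker, was listed at 0 in 5 of the 6 libraries and stood at 0.0231 FPKM in control replicate 1. The myeloid marker ITGAM passed the test and stood at 0.437 to 0.646 FPKM in control and, treated, 0.739 to 1.13 FPKM. The 5 fibroblast markers summed to 1.69 to 2.44 FPKM without and 2.55 to 3.25 FPKM with IFN-beta, the 3 endothelial markers to 0.696 to 0.964 and 2.12 to 2.21 FPKM, and the 3 melanocyte markers to 1.41 to 1.43 and 1.44 to 1.87 FPKM. COL1A1 and CDH5 were called higher among these, while DCN and MLANA were listed at 0 in all libraries. The part of these markers in the results was not tested.

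All 5 immune subunit genes were higher with IFN-beta, while the 31 genes of the constitutive core, base and lid had a median log2 change of -0.07, with 2 called higher and 9 lower. In all, 46 of the 48 genes passed the filter of a mean of at least 0.5 FPKM, and 7 of them were called higher, against the 22.5% of all genes, and 11 lower, against 19.9%. The 5 immune genes were among the 7, and their median log2 change was 0.71, where that of all tested genes was 0.01. The median of the other 41 genes was -0.05, with 2 called higher and 11 lower. In these bulk samples a change in a transcript's level per cell and a change in the share of cells that make it cannot be told apart.

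PSMB9, the immune subunit also known as LMP2, had the largest rise of the members. It lies in the MHC class II region (chr6:32844136-32859851 in the table). Its control libraries stood at 64.1, 68.2 and 66.7 FPKM and its IFN-beta libraries at 144, 146 and 159 FPKM. Every treated library was more than 2-fold above every control. The log2 change was 1.17 ± 0.047 (SE, limma adjusted p = 2.08e-07), and 2.24% of all tested genes had a larger one.

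PSMB8, the immune chymotrypsin-like subunit also known as LMP7, is the neighbour of PSMB9 on the opposite strand (chr6:32840717-32844679). It had 69.8, 68.1 and 69.5 FPKM in control and, treated, 120, 125 and 130 FPKM. The groups were far apart and the controls nearly equal. The log2 change was 0.85 ± 0.041 (limma adjusted p = 7.51e-07). The antisense gene PSMB8-AS1 overlaps 14.0% of its coding bases together with PSMB9, and rose from 6.51 to 6.75 FPKM in control to 13.6 to 15.4 FPKM (log2 change 1.06 ± 0.064, limma adjusted p = 3.51e-06). Whether the counting used strand is not given, so reads of PSMB8 and its antisense partner may not be told apart there.

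PSMB10, the immune trypsin-like subunit (chr16:67934506-67936864), stood at 22.7, 17.8 and 16.5 FPKM in control and, treated, 29.6, 29.5 and 34.6 FPKM. It was the lowest of the immune genes in every library, and its controls varied most relative to their mean. The log2 change was 0.71 ± 0.11 (limma adjusted p = 0.00103). Its level is uncertain because 58.3% of its coding bases are shared with another gene on the same strand, AC040162.1, which stood at 0.433 to 0.662 FPKM.

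The activator genes PSME1 and PSME2, for the alternating chains of the interferon-inducible ring, are close neighbours on chromosome 14. PSME1 (chr14:24136163-24138967) had 204, 202 and 200 FPKM in control and, treated, 262, 277 and 284 FPKM. PSME2 (chr14:24143362-24147570) had 162, 165 and 158 FPKM in control and, treated, 220, 236 and 248 FPKM. The groups did not overlap for either gene. The log2 changes were 0.44 ± 0.039 for PSME1 (limma adjusted p = 3.88e-05) and 0.53 ± 0.047 for PSME2 (limma adjusted p = 3.77e-05). Without interferon these activator genes stood near the median of 194 FPKM of the 14 constitutive core genes.

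PSME3, which encodes the nuclear activator related to both, had 136, 133 and 136 FPKM in control and, treated, 137, 138 and 135 FPKM. Its groups overlapped and its log2 change was 0.02 ± 0.033 (limma adjusted p = 0.683). PSME4, a larger activator linked to acetylated histones, had 61.6, 64.8 and 61.5 FPKM and then 67.7, 63.5 and 63.4 FPKM, with a log2 change of 0.05 ± 0.043 (limma adjusted p = 0.377). The ratio of PSME1 to PSME3 went from 1.49, 1.52 and 1.47 to 1.92, 2.00 and 2.10. PSMF1, an inhibitor and regulator of the core, had a log2 change of 0.01 ± 0.042 (limma adjusted p = 0.806).

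**Figure D2:**
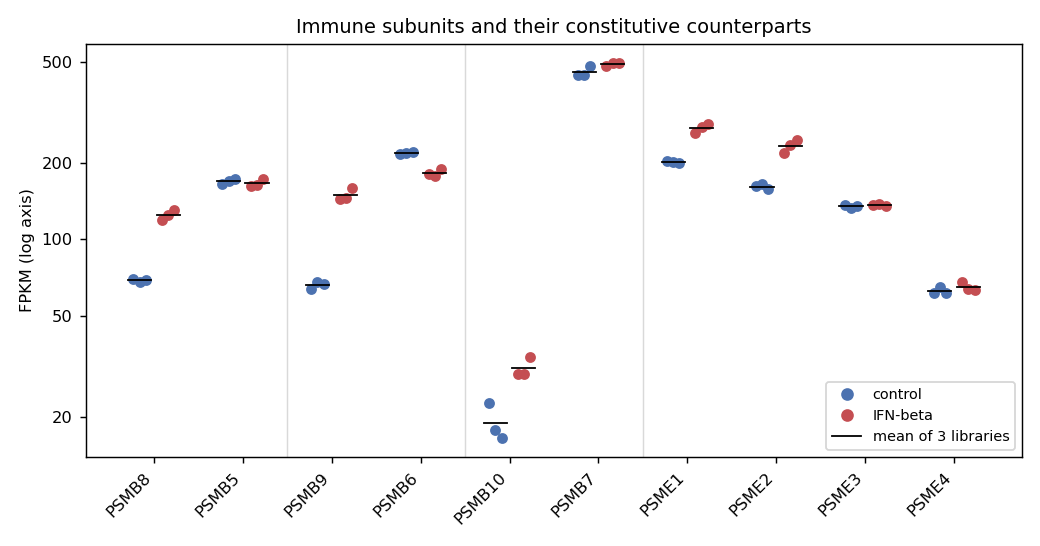
FPKM (log axis) of the 5 immune subunit genes and their counterparts in each of the 3 control and 3 IFN-beta libraries, with the mean of each group as a line. All IFN-beta points of PSMB8, PSMB9, PSMB10, PSME1 and PSME2 lie above the control points, while those of PSMB5, PSME3 and PSME4 overlap with them.

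The constitutive cutting subunits differed among themselves. PSMB5, the chymotrypsin-like subunit that PSMB8 replaces, had 166, 170 and 173 FPKM in control and, treated, 163, 163 and 173 FPKM. Its groups overlapped, and the log2 change was -0.03 ± 0.039 (limma adjusted p = 0.594). PSMB6, the caspase-like subunit that PSMB9 replaces, stood at 217, 219 and 220 FPKM in control and at 180, 177 and 189 FPKM in IFN-beta libraries. It fell, with a log2 change of -0.26 ± 0.037 (limma adjusted p = 5.20e-04) and no overlap between groups. PSMB7, the trypsin-like subunit that PSMB10 replaces, had 445, 445 and 481 FPKM in control and, treated, 481, 494 and 497 FPKM. Its groups were only just apart, and the log2 change of 0.10 ± 0.041 did not pass (limma adjusted p = 0.0750). It passed after rescaling to the same sum, after quantile normalization and without control replicate 3.

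FPKM is scaled by length, so the genes of a pair were set against each other within a library. The level of PSMB10, and so each share that includes it, is uncertain through its shared coding bases. Reads of PSMB8 may also not be told apart from those of its antisense partner where they overlap. PSMB8 made up 29.7%, 28.6% and 28.7% of the FPKM of PSMB8 and PSMB5 in control and 42.4%, 43.3% and 43.0% in IFN-beta libraries. PSMB9 made up 22.8%, 23.7% and 23.2% of its pair with PSMB6 in control and 44.5%, 45.2% and 45.7% with IFN-beta. PSMB10 made up 4.84%, 3.85% and 3.31% of its pair with PSMB7 in control and 5.79%, 5.65% and 6.50% with IFN-beta. The immune share was higher in 3 of 3 IFN-beta libraries for each pair, and in FPKM it did not reach 50% in any. Whether a share passes 50% depends on the gene lengths behind the FPKM. In reads recovered from the FPKM steps, whose true counts can be multiples, IFN-beta replicate 1 had 4734 for PSMB8 and 4108 for PSMB5. It had 4927 for PSMB9 and 3835 for PSMB6, but 700 for PSMB10 and 9672 for PSMB7. In these recovered reads the order within each pair was the same in the other IFN-beta libraries. The multiples can differ between genes, so the order of the true counts within a pair is not known. As log2 ratios of immune to constitutive subunit, the differences between group means were 0.88 for PSMB8 to PSMB5, 1.44 for PSMB9 to PSMB6 and 0.62 for PSMB10 to PSMB7. The largest SD of the log2 ratio within a group was 0.042 for the first pair and 0.036 for the second, and for the PSMB10 pair it was 0.29, in control. Each of the 3 pairs had a two-sided exact permutation p of 0.1, and of 0.1 after adjustment over the pairs, the smallest value that 3 against 3 libraries can give.

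**Figure D3:**
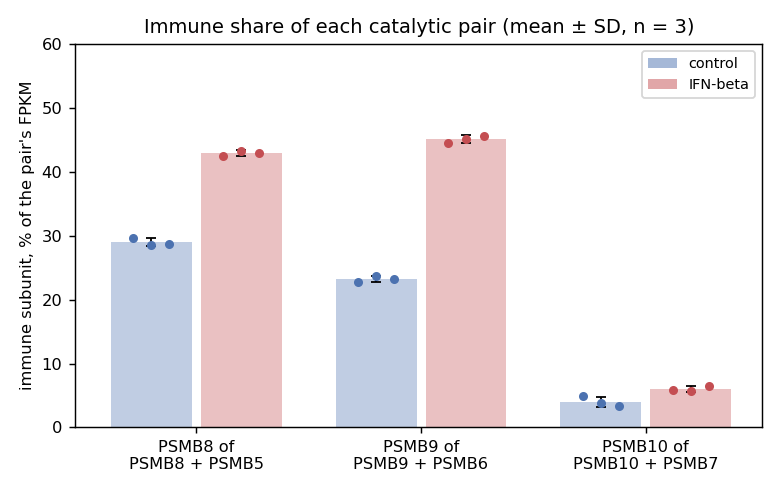
Share of the immune subunit in the summed FPKM of each catalytic pair, in percent, with bars at the mean of 3 libraries, error bars of SD and a point per library. The share of PSMB9 went from a mean of 23.3% to 45.1%, that of PSMB8 reached a mean of 42.9% with IFN-beta, and that of PSMB10 stayed below 7% in each library.

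Over the 3 pairs together, immune genes held 15.9%, 15.6% and 14.9% of catalytic FPKM in control and 26.3%, 26.5% and 27.4% in IFN-beta libraries. In every library PSMB7 had the highest FPKM of the 6 catalytic genes and PSMB10, with its uncertain level, the lowest. The immune genes also shifted against each other, since the ratio of PSMB9 to PSMB8 was 0.918, 1.00 and 0.960 in control and 1.21, 1.17 and 1.22 in IFN-beta libraries.

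Of the 4 beta subunits that do not cut, 1 was called lower and 0 higher, against 19.9% and 22.5% of all tested genes. PSMB1, a structural beta subunit, had 156, 153 and 173 FPKM in control and, treated, 146, 142 and 148 FPKM. The groups were apart, with control replicate 3 the highest, and the log2 change of -0.14 ± 0.049 was just past the threshold (limma adjusted p = 0.0489). Its call ended in 8 of the 17 alternatives of the fit, among them the rescaling to the same sum and the fits with control replicate 3 or any single IFN-beta replicate left out (for control replicate 3 and IFN-beta replicates 1 to 3, limma adjusted p of 0.0789, 0.107, 0.150 and 0.0784). PSMB2, PSMB3 and PSMB4 had log2 changes of -0.05, -0.05 and -0.08 and did not pass. PSMB3 was the most abundant member, with 554 to 623 FPKM in control libraries.

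In the alpha ring, the gated outer ring of the core, 3 of 7 genes were called lower and 2 higher, against 19.9% and 22.5% of all tested genes. PSMA3 had 315, 339 and 376 FPKM in control and, treated, 295, 289 and 294 FPKM, and PSMA7 went from 430, 420 and 447 to 378, 398 and 408 FPKM. In both genes the groups were apart by less than the range of the controls. The log2 changes were -0.23 ± 0.059 for PSMA3 (limma adjusted p = 0.0142) and -0.13 ± 0.042 for PSMA7 (limma adjusted p = 0.0333). The PSMA7 call ended in 7 of the 17 alternatives, among them those with control replicate 1 or 3 or IFN-beta replicate 1 or 2 left out (in that order, limma adjusted p of 0.0519, 0.0606, 0.133 and 0.0810). PSMA4 and PSMA5 had changes of 0.03 ± 0.062 and 0.10 ± 0.060 and did not pass.

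The other 3 alpha genes share most of their coding bases with another gene. PSMA6 had 5.17, 4.48 and 3.84 FPKM in control and, treated, 5.66, 7.04 and 7.40 FPKM (log2 change 0.53 ± 0.12, limma adjusted p = 0.00884). PSMA2 had 5.88, 5.18 and 5.75 FPKM and then 7.25, 6.75 and 6.60 FPKM (log2 change 0.27 ± 0.077, limma adjusted p = 0.0199), a call that ended without control replicate 2 (limma adjusted p = 0.0725), without IFN-beta replicate 1 (limma adjusted p = 0.0765) and after quantile normalization (limma adjusted p = 0.0712). PSMA1 had 49.2, 47.5 and 43.2 FPKM and then 40.8, 40.0 and 34.9 FPKM (log2 change -0.27 ± 0.070, limma adjusted p = 0.0125). PSMA2 and PSMA6 stood below the 107 to 475 FPKM of PSMA3, PSMA4, PSMA5 and PSMA7 in control libraries.

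In GENCODE release 29 (GRCh38) PSMA1, PSMA2 and PSMA6 share 88.6%, 97.1% and 70.4% of their coding bases with another gene on the same strand. PSMD9, a chaperone of base assembly, shares 58.7% and was the lowest tested member, with 1.39 to 1.52 FPKM over all libraries. Together with PSMB10 these are the 5 members that share over 50%, and they were 5 of the 6 lowest of the 46 tested genes, the remaining one being PSMG4. PSMG3, which shares none, was next to PSMA1 in level. Its means were 45.8 FPKM in control and 39.9 FPKM with IFN-beta, against 46.7 and 38.6 FPKM for PSMA1. The partner genes AC018523.2 of PSMA1, AC010132.3 of PSMA2, AL121594.1 of PSMA6 and AC069503.2 of PSMD9 stood between 0 and 0.105 FPKM. PSMD9 also overlaps WDR66 on the same strand, whose level was not analysed here. How the counting treated reads in shared exons is not given in the sources used here, and its part in these levels was not tested. Without the 5 genes, a cut added after seeing the data, 4 members were called higher, all of them immune, and 10 lower. The 10 were among 37 tested members outside the immune group, of which 0 were called higher. Over all tested genes 19.9% were called lower and 22.5% higher.

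**Figure D4:**
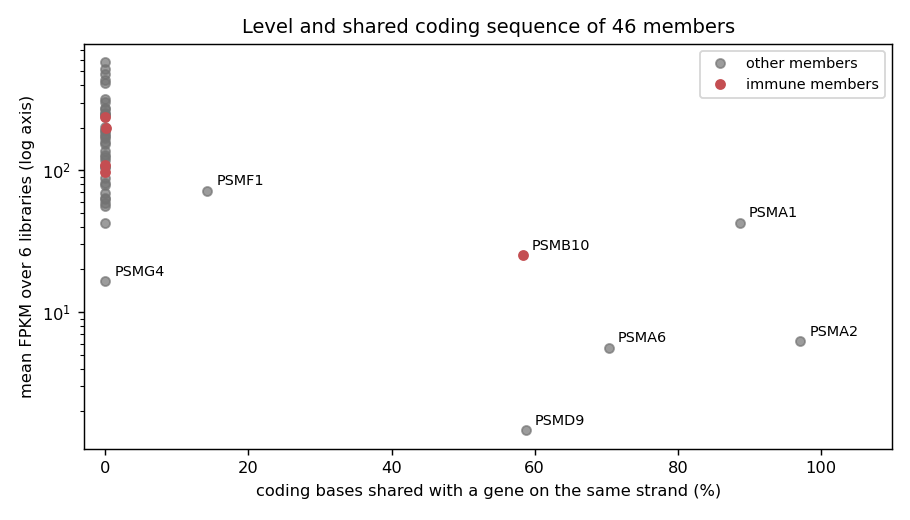
Mean FPKM over the 6 libraries (log axis) of the 46 tested members against the percentage of coding bases shared with another gene on the same strand in GENCODE release 29, with immune members in red. The 5 genes right of 50% lie at or below 42.6 FPKM. Of the genes with no sharing PSMG4 alone lies below that level, and PSMG3 lies next to it.

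Of the 17 genes of base and lid 4 were called lower, a share near the 19.9% of all tested genes, and 0 higher, against 22.5%, with a median log2 change of -0.07. Of the 6 ATPases, PSMC5 fell from 166, 166 and 172 to 144, 149 and 149 FPKM, with no overlap (log2 change -0.19 ± 0.035, limma adjusted p = 0.00266), while FTSJ3 overlaps 10.5% of its coding bases on the opposite strand. The other ATPases ran from -0.09 for PSMC3 to 0.11 for PSMC4 without passing. Of the large base scaffolds, PSMD1 fell from 174, 179 and 192 to 169, 166 and 167 FPKM (log2 change -0.12 ± 0.042, limma adjusted p = 0.0492). The PSMD1 call ended in 10 of the 17 alternatives of the fit, including the rescaling to the same sum and the fits with control replicate 2 or 3 or IFN-beta replicate 1, 2 or 3 left out (in that order, limma adjusted p of 0.0890, 0.0844, 0.0979, 0.138 and 0.113). PSMD2, a scaffold that docks ubiquitin carriers, had 533, 505 and 505 FPKM and then 515, 512 and 520 FPKM, with a log2 change of 0.00 ± 0.037 (limma adjusted p = 0.949). The ubiquitin receptor PSMD4 had a change of -0.07 ± 0.037 and did not pass (limma adjusted p = 0.178).

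In the lid, 2 of 8 genes were called lower, against 19.9% of all tested genes. PSMD7, the partner of the deubiquitinase, went from 256, 261 and 280 to 232, 227 and 232 FPKM (log2 change -0.20 ± 0.041, limma adjusted p = 0.00386). On the opposite strand 28.4% of its coding bases overlap AC009120.2, which stood at 8.55 to 10.3 FPKM. PSMD8 went from 112, 109 and 113 to 95.9, 102 and 105 FPKM (log2 change -0.14 ± 0.043, limma adjusted p = 0.0248). The PSMD8 call ended in 6 of the 17 alternatives, among them those with control replicate 1 or IFN-beta replicate 1 or 2 left out (in that order, limma adjusted p of 0.0502, 0.0982 and 0.0636). PSMD14, the deubiquitinase itself, had a change of -0.13 ± 0.048 and just missed the threshold (limma adjusted p = 0.0535), and PSMD6 had one of -0.10 ± 0.039 (limma adjusted p = 0.0629). PSMD3, PSMD11, PSMD12 and PSMD13 lay between -0.01 and 0.10 and did not pass.

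Among the 7 assembly chaperones, PSMD10, a base chaperone also known as the oncoprotein gankyrin, had the largest fall of all members. It went from 73.4, 82.8 and 76.3 to 58.5, 62.7 and 60.7 FPKM. The lowest control lay well above the highest treated library, and the log2 change was -0.35 ± 0.052 (limma adjusted p = 7.44e-04). PSMG3, a partner of PSMG4 in a chaperone of the alpha ring, fell from 44.3, 45.1 and 48.0 to 39.4, 40.8 and 39.3 FPKM (log2 change -0.20 ± 0.044, limma adjusted p = 0.00678). PSMG4 had 15.8, 15.0 and 18.2 FPKM in control and 17.6, 15.8 and 16.8 FPKM with IFN-beta. Its log2 change was 0.04 ± 0.076 (limma adjusted p = 0.697). The promoter window of PSMG4 holds the same 10 letters as those of 4 immune genes. The part of these letters in expression was not tested. PSMG1, PSMG2, PSMD5 and PSMD9 had changes of -0.12, -0.03, 0.09 and 0.06 and did not pass.

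**Figure D5:**
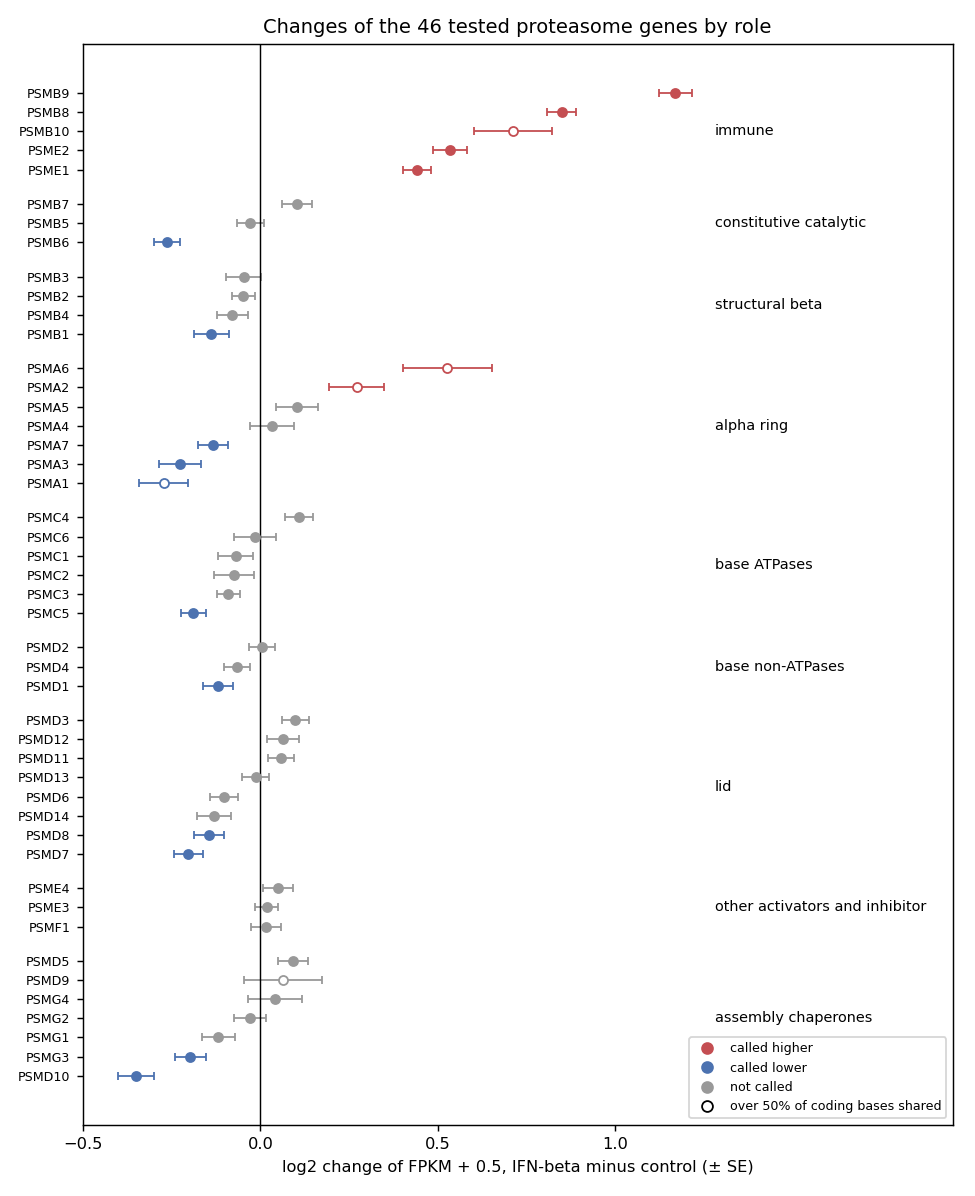
Log2 changes of the 46 tested proteasome genes (IFN-beta minus control, on the scale of log2 of FPKM + 0.5, with SE), grouped by role and coloured by call, with open points for genes that share over 50% of their coding bases. The 5 immune genes lie between 0.44 and 1.17, and the other 41 between -0.35 and 0.53, with only the open points PSMA2 and PSMA6 called higher among them.

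The split of calls between higher and lower moved with the scaling of the libraries. With the deposited FPKM, 38.9% of the 18 called members were higher, and 53.2% of the calls over all genes. After rescaling to the same sum 11 members were higher and 7 lower (61.1%, and 63.3% over all genes), with PSMB7, PSMC4, PSMD3 and PSMD5 added to the higher ones. After quantile normalization 8 were higher and 15 lower (34.8%, and 41.3% over all genes). All 5 immune genes were called higher in each of the 17 alternatives of the fit. Of the 11 lower genes PSMA1, PSMB6, PSMC5, PSMD7, PSMD10 and PSMG3 were called lower in each of them, and PSMA3, PSMA7, PSMB1, PSMD1 and PSMD8 were not. These 5 calls all ended without trend in eBayes and when genes with low values were kept, and 4 of them, PSMA3 being the exception, after rescaling to the same sum.

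The tissue-restricted core genes were not tested. PSMB11, the thymic cutting subunit, was listed at 0 in all 6 libraries. PSMA8, a testis alpha subunit, was listed at 0 in 5 libraries and at 0.0402 FPKM in IFN-beta replicate 1.

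Genes that work with the proteasome were counted as a list of 25, of which 5 were called higher and 4 lower, with a median log2 change of 0.02. These counts are near the 22.5% and 19.9% of all tested genes and are no result about the list. Among the higher ones, the proteasome-bound ubiquitin ligase UBE3C went from 72.8 ± 1.01 to 87.4 ± 1.04 FPKM (SD, n = 3; log2 change 0.26 ± 0.034, limma adjusted p = 3.85e-04). The ubiquitin-binding activator ZFAND5 had a change of 0.23, the proteasome adaptor ECPAS one of 0.17, and the factors NFE2L2 and NFE2L1 changes of 0.15 and 0.14. Among the lower ones were RPS27A (-0.50), which encodes ubiquitin fused to a ribosomal protein, the small lid subunit SEM1 (-0.29) and the base chaperone PAAF1 (-0.13). POMP, the chaperone of core maturation on which immunoproteasome assembly depends, had 157 ± 12.6 FPKM in control and 158 ± 9.14 FPKM with IFN-beta (a log2 change of 0.02 ± 0.063, limma adjusted p = 0.857).

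All 6 genes listed for peptide transport, trimming and class I assembly were called higher, against 22.5% of all tested genes. TAP1, the neighbour of PSMB9 shown above, went from 39.6 ± 0.543 to 146 ± 9.14 FPKM (SD, n = 3; log2 change 1.87 ± 0.049, limma adjusted p = 9.17e-09). TAP2, its partner chain, had a change of 0.60, and the aminopeptidases ERAP1 and ERAP2, which trim peptides, had changes of 0.39 and 0.92. The factors known to act on immune subunit promoters were higher in 5 of 5 cases, against the same 22.5%. Among them were IRF1 at 0.45 and the class I transactivator NLRC5 at 1.76 on the log2 scale. Both lists were chosen with earlier results of these data known.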

How the data were processed

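RNA of 6 HaCaT libraries was sequenced, 3 per group, with groups and replicate numbers taken from the sample titles. The authors deposited 1 table of FPKM for 60671 genes, all with human Ensembl identifiers. Per the labels' protocols CLC Genomics Workbench 11.0.1 was used, for a step not named, and the mouse builds GRCm38 and mm10 are listed per the submitters' processing notes. Of the 58453 identifiers also in GENCODE release 29, 76.9% had the same coordinates there, so GRCh38 is inferred for coordinates of genes. For aligner, counter and strand setting the answer is not given in the sources used here.

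The test was two-sided, by limma 3.58.1 (R 4.3.3, lmFit and trended eBayes) on log2(FPKM + 0.5), for 15163 genes whose mean was at least 0.5 FPKM, at a Benjamini-Hochberg adjusted p of 0.05. This scale understates changes of low genes. Whole reads were recovered from the FPKM steps within 0.01 reads for 100% of the 30507 genes above 0, using GENCODE merged exon lengths or else the smallest whole length that fits, so true counts can be multiples of these. The GENCODE merged exon length fit for 10193 of the 30507 genes. Tables and figures used Python 3.11.15 and pandas 2.3.3. The fit was also run on simulated data, with the same extra spread set for every gene and few genes changed. The outcome of that run is not used here.

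Tried as alternatives were no filter, pseudocounts of 0.1 and 1, a minimum mean of 2 FPKM, rescaling to the same sum, quantile normalization, median-of-ratios factors, eBayes without trend or robust, the replicate number as a block, limma voom on recovered reads and each library left out, 17 in all. Leaving out the 5 genes with shared coding bases was added after seeing the data. Members, role groups and lists were chosen with earlier results of these data known. All members may be named. Some genes of the other lists are not reported here. Values per library are given for the immune genes, their counterparts and, in each other role group, the called genes that rose and fell most. Further members are given so as well, chosen after their values were seen.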

Additional observations from a re-analysis of the deposited data

How the results depend on the processing

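The 3 log2 ratios of catalytic pairs kept their direction under the other pseudocounts, after quantile normalization and with each library left out. Rescaling to the same sum and median-of-ratios factors act alike on both genes of a pair and cannot move these ratios. That of PSMB9 to PSMB6 was 1.40 after quantile normalization, a shift larger than the spread between replicates. The number of members called higher was 11 after rescaling to the same sum and 4 without the 5 genes that share most of their coding bases, and leaving out 1 library at a time gave 6 to 10. The number called lower was 6 without the filter on low values and in the eBayes fit without trend, 7 after rescaling to the same sum, and 7 to 12 with 1 library left out, with 7 both without IFN-beta replicate 1 and without IFN-beta replicate 2. Calls over all genes moved too. Lower ones numbered 3012 in the main fit, 2412 without the filter, 2707 without trend and 2364 after rescaling. Higher ones over all genes numbered 3419 in the main fit and 4077 after rescaling. With 1 library left out, 2732 to 3350 of all genes were higher and 2370 to 3002 lower. Direction was not stable for members near 0. After rescaling to the same sum the log2 change was 0.000079 for PSMB3, 0.018 for PSMB5, 0.032 for PSMC6, 0.033 for PSMD13 and 0.016 for PSMG2. After quantile normalization it was -0.057 for PSMD9, -0.040 for PSME3 and -0.037 for PSMF1, and with median-of-ratios factors it was -0.011 for PSMD2. With single libraries left out, changes ran from -0.028 to 0.11 for PSMA4, -0.066 to 0.057 for PSMC6, -0.034 to 0.0067 for PSMD13, -0.010 to 0.030 for PSMD2, -0.022 to 0.037 for PSMF1, -0.055 to 0.013 for PSMG2 and -0.017 to 0.12 for PSMG4. The replicate numbers are shared between groups, and the labels state no pairing. Deviations of same-numbered libraries from their group means correlated with r of -0.052, -0.098 and -0.058. Those of libraries with different numbers correlated with r of 0.0047 to 0.059. With 3 libraries per group these values cannot show whether same-numbered libraries share a culture or batch. With the replicate number as a block 5817 genes, 7 higher and 10 lower members were called, with PSMD1 the one lost (limma adjusted p = 0.0682). No other member changed its call under the block. The 1 value of PSMA8 above 0 rests on 1 recovered read.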

Other observations

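Genes named after a proteasome gene but outside the rule were read separately, and some of those above the filter are given here, chosen after their values were seen. PSMG3-AS1, the antisense partner of the chaperone gene PSMG3, stood at 0.958, 1.09 and 0.890 FPKM in control and 0.549, 0.523 and 0.402 FPKM in IFN-beta libraries. It was lower in 3 of 3 libraries, with a log2 change of -0.58 (limma adjusted p = 0.0135). For PSMA3-AS1 the log2 change was -0.06, short of the threshold (limma adjusted p = 0.353), although PSMA3 fell. The pseudogene PSMC1P1 stood at 2.63 to 4.10 FPKM over all 6 libraries. PSMA6P1, a pseudogene of PSMA6 on chromosome Y, stood at 2.86 to 4.09 FPKM, where PSMA6 itself had 3.84 to 7.40 FPKM. The log2 change of PSMA6P1 was -0.05 ± 0.14 (limma adjusted p = 0.823). How reads shared by PSMC1 or PSMA6 and their processed copies were assigned is not given in the sources used here.

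Over all tested genes with a promoter window, the letters of the printed elements went with the calls as follows. Of 10070 such genes, 24.2% were called higher and 22.1% lower. Of the 415 that hold the core of the interferon-stimulated response element, 44.1% were called higher and 10.1% lower. Of the 28 that hold GAAAGCGAAA, 67.9% were called higher and 0 lower, with 4 immune proteasome genes and TAP1 among those called higher and PSMG4 among those that did not pass. The same windows served to choose these letters, so the counts are a description.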
